A study of Mus musculus with 18 samples.

Results

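The chemokines, interleukins, interferons, colony stimulating factors and tumour necrosis factor (TNF) proteins of the mouse, together with their receptors, were read across whole ovaries of mice that secrete too much luteinizing hormone (LH). A probe set, the group of oligonucleotides that reads 1 transcript on a chip, was taken where the platform annotation gave it a single symbol that starts with Ccl, Cxcl, Ccr, Cxcr or Il and a digit, or with Csf, Ifn or Tnf. This gave 125 of the 13179 probe sets on 2 chip types, 80 on chip A and 45 on chip B. Of these, 7 are named probe sets that both chips carry and are described apart, which left 118 probe sets for 108 genes. A further 6 probe sets with several symbols, 1 of them matching, were not used.

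Total RNA came from ovaries of CF-1 mice or of F1 hybrids of CF-1 and C57BL/6, wild type or carrying the LHCTP transgene that gives LH hypersecretion, at 2 or 5 months of age. The labels call both 2-month transgenic ovaries cystic, the 5-month one of CF-1 a granulosa cell tumour and the 5-month one of the hybrid a luteoma. A CF-1 transgenic ovary of 5 months from a mouse treated with human chorionic gonadotropin (hCG), which acts on the LH receptor, was also a luteoma. Each of these 9 conditions had 1 array of each chip type and no second sample, and the promoter of the transgene, the dose of hCG and any pooling of animals are not given in the sources used here. Values are scaled intensities in units. They are listed as CF-1 2 months, hybrid 2 months, CF-1 5 months and hybrid 5 months, first for wild type, then for transgenic (cystic, cystic, tumour, luteoma), and then for the hCG-treated ovary.

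The arrays of 1 chip type were brought to a common trimmed mean, from trimmed means of 907 to 1756 units (chip A) and 542 to 921 units (chip B) before scaling. A value counted as detected from 368 units (chip A) or 581 units (chip B) upward, and 54.5% to 57.9% and 28.0% to 29.6% of the probe sets reached these limits. Of genes fixed as ovarian markers and carried by the chips, 8 of 8 for granulosa cells and follicles and 6 of 6 for theca, interstitial and luteal cells were detected on at least 2 of 9 arrays. The summed level of the granulosa list was highest in the tumour, at 74224 units, and that of the theca and luteal list was lowest there, at 25983 units. The granulosa genes did not move together. Hsd17b1, Nr5a2, Inhba, Inhbb and Fst read highest in the tumour, Inha lay within the range of the other arrays, and Amh (414.6 units) and Wt1 (1219.5 units) read lowest. Pan-leukocyte markers reached the limit for 7 of 10 genes and macrophage markers for 12 of 15, but only 2 of 14 T and NK cell markers did, with Cd3d, Cd3g and Cd8a under it. In whole ovaries, fewer cells of a type and less RNA per cell cannot be told apart.

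Chemokines are small secreted proteins that guide cells through G protein-coupled receptors. The CC and CXC families differ in the spacing of their first cysteines. Interleukins and interferons act mostly through receptor chains that signal by Janus kinases and STAT factors, while TNF receptors and the interleukin 1 receptor signal to NF-kB. In the ovary, cytokines and the leukocytes that answer them are known for parts in ovulation and in the formation and regression of the corpus luteum, both of which follow LH.

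Most of these genes stood under the detection limit in every ovary. Of the 108 genes, 30 were at the limit on at least 2 of 9 arrays and were tested, 7 were there on 1 array and 71 on none. Receptors were detected more often than ligands, with 19 of 45 receptor genes (42.2%) and 9 of 57 ligand genes (15.8%) tested, beside 3916 of 6137 (63.8%) of all named genes. TNF receptors had the highest share, 6 of 8, and TNF ligands had 0 of 6. The interleukins had 2 of 18, the interferons with their receptors 3 of 15 and the chemokine receptors 2 of 9. Detection on 2 or more arrays is a rule on levels, so these shares depend on the limit of each chip type.

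**Figure D1:**
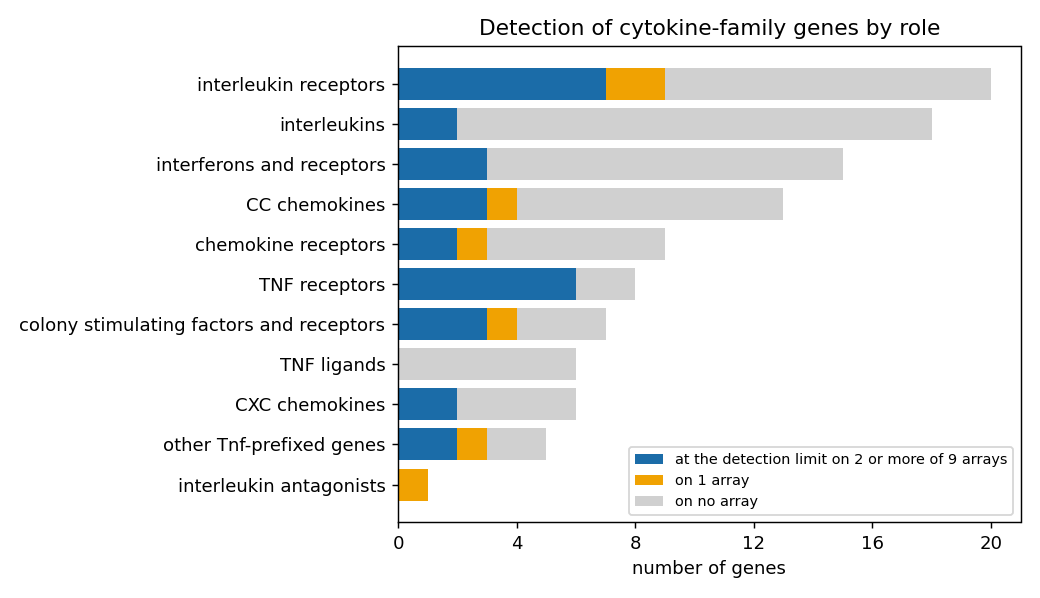
Number of genes in each role (horizontal axis, genes) that reached the detection limit on 2 or more of the 9 arrays (blue), on 1 (orange) or on none (grey). TNF receptors show 6 of 8 genes in blue, while TNF ligands show 0 of 6.

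Of the 88 probe sets that were not tested, 81 were at the limit on no array and 11 read below 0 on all 9. The classical inflammatory ligands were among them. Tnf, the founding TNF ligand, read -156.8 to 86.4 units on chip B, and Il1b, the secreted interleukin 1, read -68.0 to 174 units on chip A. Il6 lay between -14.4 and 115 units on chip B, and Ccl2, the main monocyte attractant, between -173 and 1.2 units on chip A. Under these limits no condition could be set above another. The highest readings of the untested genes came from Tnfaip6 at 1545 units and Csf1r at 764 units, each on 1 array.

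Promoter windows were read for the genes on which the results turn. The RefSeq promoter table (mouse assembly GRCm38.p6) held a window for 86 of the 108 genes and for 26 of the 30 tested, and the 250 bases before the start were searched on both strands for 3 motifs. The NF-kB-like letters GGGNNTTTCC were in 9 of 86 windows (10.5%) and in 378 of 27025 windows of all genes (1.4%). The interferon-response-like letters TTTCNNTTTC were in 10 of 86 (11.6%) and in 821 of all (3.0%). The STAT-type letters TTCNNNGAA, which read the same on both strands, were in 16 of 86 (18.6%) and in 1940 of all (7.2%). Among the 26 tested genes the NF-kB-like letters were in Csf1 alone, the interferon-response-like letters in Cxcl10 and Tnfrsf1b, and the STAT-type letters in Ifnar2, Tnfrsf18, Tnfrsf1a and Tnfrsf1b. A match in letters is a description and not a binding site.

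Shown are the windows of both classical TNF receptors, whose 5-month levels are given below, of the interferon-induced ligand Cxcl10, of Cxcl12, the ligand with the lowest genotype p, and of Tnfaip6, which was high on 1 array. They were picked after the values were seen. The bases run 5′ to 3′ on the gene's strand and end just before the start, and capitals mark the matches, none of which overlapped. In Tnfrsf1b (chr4:145246871-145247120, minus strand) the interferon-response-like letters lie at -10 to -1 from the start and the STAT-type letters at -181 to -173. In Tnfrsf1a (chr6:125349473-125349722, plus strand) the STAT-type letters lie at -244 to -236, and in Tnfaip6 (chr2:52037863-52038112, plus strand) at -209 to -201. Cxcl10 (chr5:92348890-92349139, minus strand) holds the interferon-response-like letters at -213 to -204 on the other strand, and Cxcl12 (chr6:117168285-117168534, plus strand) holds none of the 3 motifs.
Tnfrsf1b: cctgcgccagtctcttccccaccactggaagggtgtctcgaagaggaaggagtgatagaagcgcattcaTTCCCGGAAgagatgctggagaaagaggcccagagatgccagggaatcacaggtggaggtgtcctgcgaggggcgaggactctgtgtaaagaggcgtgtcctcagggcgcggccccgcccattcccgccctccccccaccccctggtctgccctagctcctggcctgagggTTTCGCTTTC
Tnfrsf1a: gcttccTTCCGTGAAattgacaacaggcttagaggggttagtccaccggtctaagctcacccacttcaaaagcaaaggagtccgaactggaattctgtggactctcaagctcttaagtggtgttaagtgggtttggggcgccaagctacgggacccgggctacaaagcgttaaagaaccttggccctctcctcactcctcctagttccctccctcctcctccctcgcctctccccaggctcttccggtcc
Cxcl10: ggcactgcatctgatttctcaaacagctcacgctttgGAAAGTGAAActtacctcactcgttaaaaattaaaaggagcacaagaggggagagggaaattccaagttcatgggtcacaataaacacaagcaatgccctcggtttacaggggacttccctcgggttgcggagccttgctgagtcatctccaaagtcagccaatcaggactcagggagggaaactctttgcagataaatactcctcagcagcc
Cxcl12: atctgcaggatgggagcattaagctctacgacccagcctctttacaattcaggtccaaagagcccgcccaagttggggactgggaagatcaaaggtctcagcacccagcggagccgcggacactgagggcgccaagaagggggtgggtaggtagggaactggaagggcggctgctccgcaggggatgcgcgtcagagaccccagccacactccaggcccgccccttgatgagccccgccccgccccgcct
Tnfaip6: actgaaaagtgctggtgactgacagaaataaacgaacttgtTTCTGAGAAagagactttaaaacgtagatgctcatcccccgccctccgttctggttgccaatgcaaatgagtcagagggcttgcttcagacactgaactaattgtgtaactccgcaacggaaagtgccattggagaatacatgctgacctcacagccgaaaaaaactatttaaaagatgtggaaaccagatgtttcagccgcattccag

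Transgenic ovaries differed from wild type in no member past the adjusted threshold, and the 3 members with the lowest p were Cxcl12 and Il10rb, both lower, and Tnfrsf9, which was higher. Genotype, age and strain were fitted together on the 8 untreated arrays with limma. For genotype, 0 of the 6408 probe sets tested passed a Benjamini-Hochberg adjusted p of 0.05, members included, whose adjusted p ran from 0.466 to 1. At an unadjusted p under 0.05 there were 3 of 30 members, beside 10.0% of all probe sets tested, so the members' share was that of the background. The median log2 difference of the 30 members, transgenic minus wild type, was 0.10 against 0.00 for all probe sets, with 19 members higher and 11 lower. The count of 3 was 0 without the 2-month CF-1 wild-type array and 1 without the 2-month CF-1 transgenic array. For these fits the share of all probe sets is not given. With some 1 array left out, the genotype difference of 27 of the 30 members moved by over 1.5 times, and that of 14 changed sign.

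**Figure D2:**
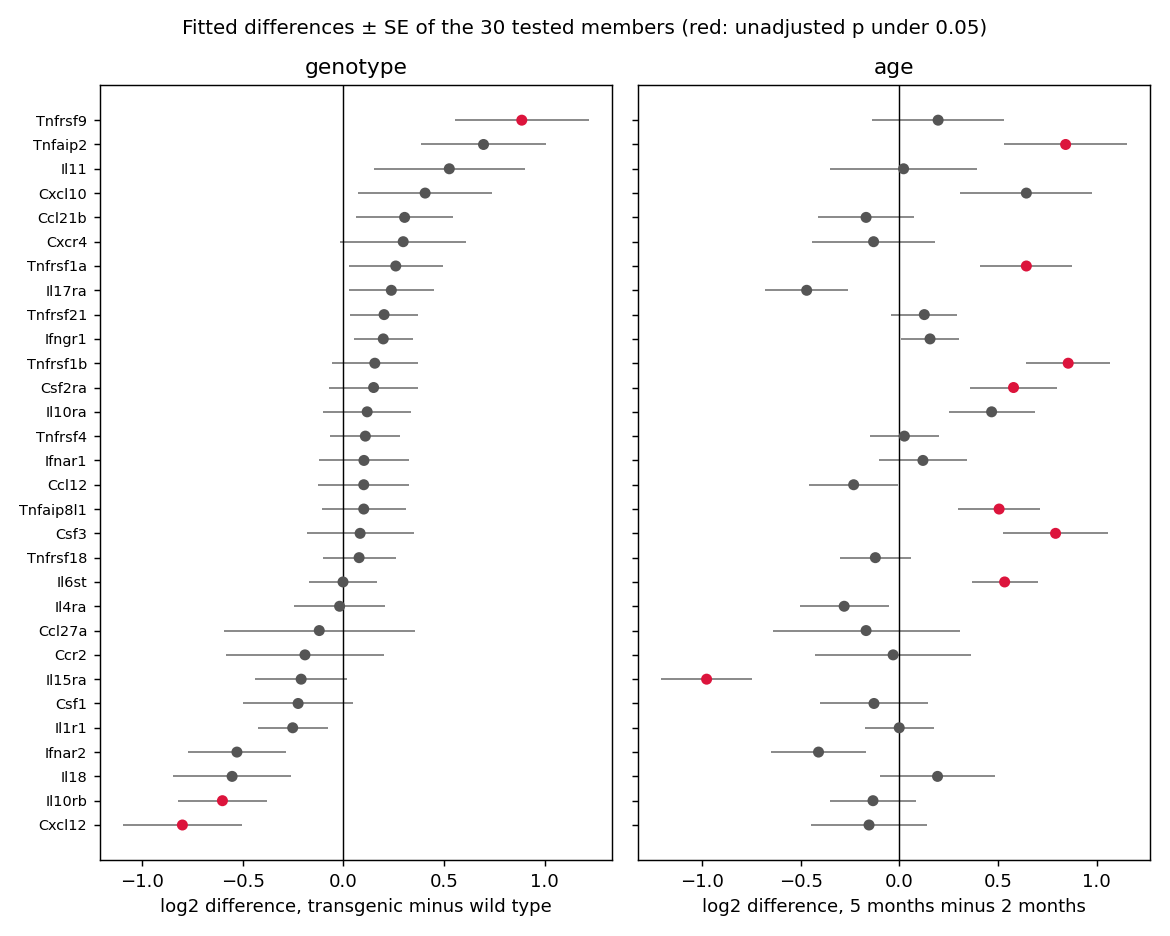
Fitted log2 differences (horizontal axes) of the 30 tested members with their SE (lines), for transgenic minus wild type on the left and for 5 minus 2 months on the right, from limma on 8 arrays. Members at an unadjusted p under 0.05 are red: 3 for genotype and 8 for age, and none passed after adjustment.

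Cxcl12, the stromal ligand of the receptor Cxcr4, was lower in the transgenic ovaries. It read 936, 1069.9, 798 and 928 units in the wild types, 720.3, 419.9, 341 and 783 in the transgenic ovaries and 1274 units after hCG. Every untreated transgenic array lay below every wild-type array, and the tumour was under the detection limit. The means were 933 ± 111 (SD, n = 4 arrays) in wild type and 566 ± 218 (SD, n = 4) in transgenic, a log2 difference of -0.80 ± 0.29 (SE, adjusted p = 0.467). The hCG-treated luteoma read highest of all 9, so the order holds for the untreated arrays only, and with this array fitted as a further transgenic one the difference was -0.56.

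Il10rb, a chain shared by the receptors for interleukin 10 and related cytokines, showed the same order. Its levels were 2454, 1763, 2557 and 1747 units in wild type, 1598, 1462, 1034 and 1514 in transgenic ovaries and 4006 units after hCG. The untreated groups did not overlap, with 2130.3 ± 435 (SD, n = 4) against 1402 ± 252 (SD, n = 4), and the log2 difference was -0.60 ± 0.22 (SE, adjusted p = 0.466). It was -0.39 without the tumour, and -0.35 with the hCG-treated array fitted as a further transgenic one. The hCG-treated luteoma stood 1.57-fold above the next array. Cxcl12 and Il10rb were the only members of the 30 whose 4 wild-type and 4 transgenic arrays did not overlap, both lower, where 2.29% of all probe sets tested were lower in this way and 1.86% higher. There were 5 such members without the 5-month CF-1 wild-type array and 4 without the tumour array. Leaving out an array can only keep or raise this count, and shares of all probe sets are not given for these smaller groups.

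Markers of some other tissues and cell types were also lower in the transgenic ovaries, where 5.34% of all probe sets tested were lower at an unadjusted p under 0.05. Of 9 epithelium and oviduct markers tested, 7 were lower at an unadjusted p under 0.05, and their summed level was 22427 to 35244 units in wild type, 2843 to 17858 in transgenic and 27189 after hCG, with Muc1 under the limit. Of 5 adipocyte markers 4 were lower, with sums of 5037 to 12742 units in wild type, 4405 to 5187 in transgenic and 5104 after hCG, with Lep under the limit. Of 10 fibroblast and smooth muscle markers 3 were lower and 0 higher, and of 6 endothelial markers 0 were called either way. Of 7 B and plasma cell markers 2 were lower, Igha and Jchain, and of 3 neutrophil markers 1, Lcn2, with 0 higher. Igha read 699.2 to 1698.4 units in wild type, 129.7 to 629.7 in transgenic and 2679.3 after hCG, while the list's sums overlapped. The macrophage, pan-leukocyte, mast cell, and T and NK cell lists had 0 genotype calls. The theca and luteal sum was lowest in the tumour and highest after hCG, at 131081 units, as were Cxcl12 and Il10rb. The part of these tissues and cell types in the levels of Cxcl12 and Il10rb was not tested.

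Tnfrsf9, the T cell costimulatory receptor also called 4-1BB, was read by a probe set whose suffix marks probes shared within a sequence family, so other transcripts may add to it. It read 2070.0, 1460, 3356 and 1992 units in wild type, 4676, 3718, 2492 and 5450 in transgenic ovaries and 1825 units after hCG. The tumour lay among the wild types, and the other transgenic arrays lay above them. The log2 difference was 0.89 ± 0.33 (SE, adjusted p = 0.468), higher in 3 of 4 pairs of the same strain and age. Both T and NK cell markers that could be tested, Cd3e and Gzma, had no genotype call, and the list's sums were 929 to 1147 units in wild type and 786 to 1162 in transgenic.

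**Figure D3:**
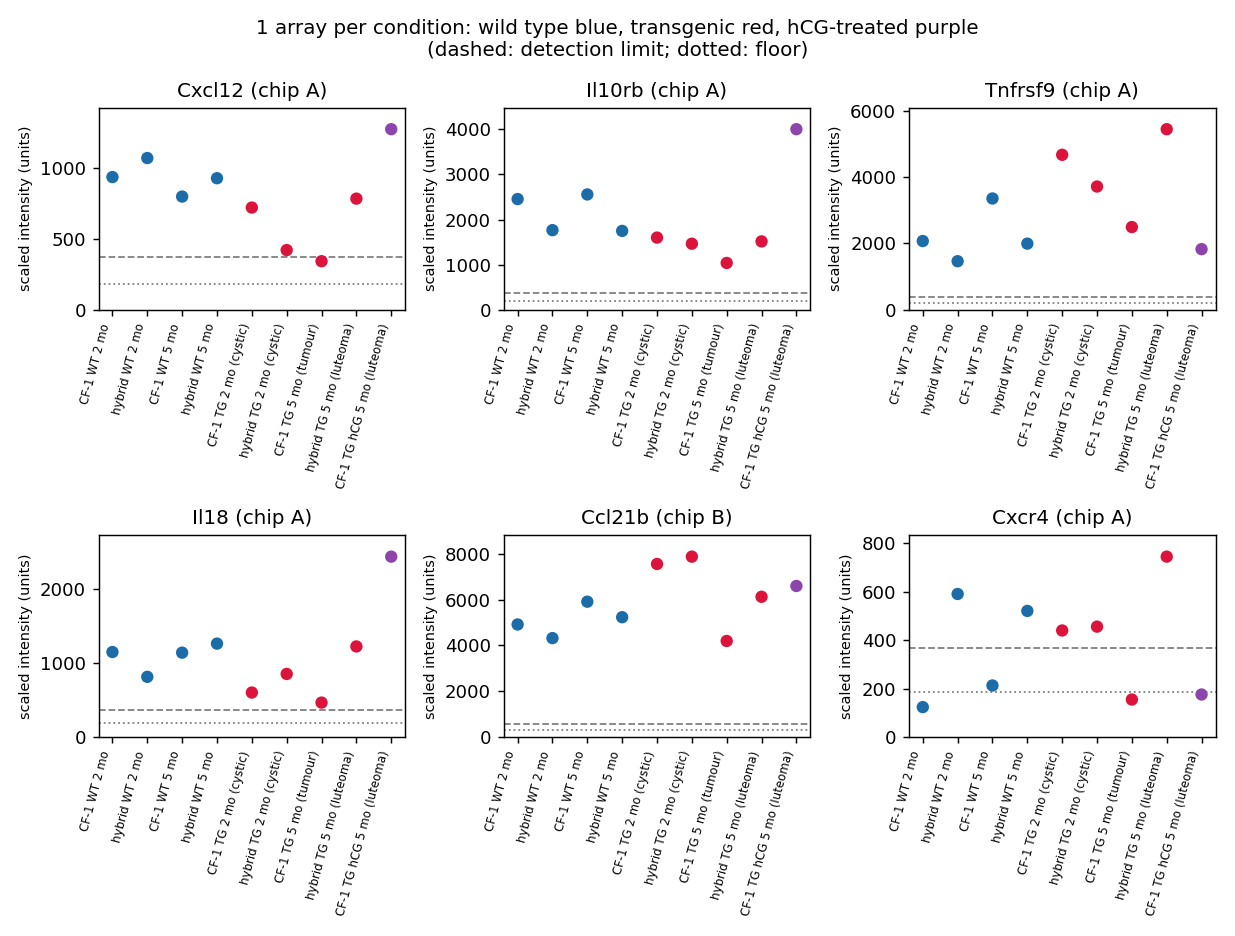
Scaled intensity (vertical axis, units, from 0) on the single array of each of 9 conditions for Cxcl12, Il10rb, Tnfrsf9, Il18, Ccl21b and Cxcr4. Dashed lines mark the detection limit and dotted lines the floor. Cxcl12 and Il10rb lie lower on all 4 untreated transgenic arrays (red) than on the wild-type arrays (blue), and highest on the hCG-treated array (purple).

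Among the CC chemokines 3 of 13 genes were tested and none approached a genotype call. Ccl21b, a ligand of Ccr7 made by lymphatic vessels, was read by a chip B probe set that near-identical Ccl21 copies can share. It gave 4917, 4320.3, 5912 and 5234 units in wild type, 7561, 7882 and 4195 units in the cystic ovaries and the tumour, 6127 units in the hybrid luteoma and 6599 units after hCG. Both cystic ovaries were above every other array, by 1.54-fold and 1.82-fold over the wild type of the same strain and age, and the tumour was the lowest. The log2 genotype difference of 0.31 ± 0.24 (SE) had an adjusted p of 0.751. Its receptor Ccr7 was not detected.

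Ccl12, a monocyte attractant of the mouse, read 389, 656, 411 and 433 units in wild type, 476, 594, 564 and 379 in transgenic ovaries and 251 units after hCG, with a log2 genotype difference of 0.10 ± 0.23 (SE). Its groups overlapped throughout, and the hCG-treated ovary was under the detection limit. Ccl27a, a ligand best known from skin, read 390.4, 572, 509.8 and -20.5 units in wild type, 250.5, 400.4, 218 and 688 in transgenic ovaries and 889.5 units after hCG. Its hybrid luteoma was at least 3.74-fold above the 5-month hybrid wild type, which lay under the floor, while the tumour was 2.34-fold below its own wild type.

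The other CXC ligand tested was Cxcl10, which interferon induces and which attracts T cells. It read 137, 167, 529 and 244 units in wild type, 214, 433.5, 363 and 399 in transgenic ovaries and 271 units after hCG. Only 3 arrays reached the detection limit, and its interferon-response-like letters are shown above. The genotype difference was 0.41 ± 0.33 (SE, log2, adjusted p = 0.762) and the age difference 0.64 ± 0.33 (SE, adjusted p = 0.323). The remaining CXC ligands, Cxcl1, Cxcl2, Cxcl5 and Cxcl9, did not exceed 102 units.

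Of the chemokine receptors, Ccr2, the receptor of the monocyte attractants, was detected in all 9 ovaries. It read 876, 642, 1577 and 719 units in wild type, 633, 1437, 667 and 621 in transgenic ovaries and 1137 units after hCG. The 5-month CF-1 wild type and the hybrid cystic ovary were the highest, and of the 4 pairs of the same strain and age 3 were lower in the transgenic ovary, by up to 2.37-fold in the tumour, while the 2-month hybrid pair was 2.24-fold higher.

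Cxcr4, the receptor of Cxcl12, had the lowest p for strain. Its levels were 123, 590.1, 212.5 and 520.1 units in wild type, 439.5, 455, 154.5 and 744 in transgenic ovaries and 175 units after hCG. All 4 hybrid arrays lay above the 4 untreated CF-1 arrays, although the CF-1 cystic ovary missed the hybrid range by a small margin. The log2 difference, hybrid minus CF-1, was 1.26 ± 0.31 (SE, adjusted p = 0.458), and 1.83% of all probe sets tested had hybrid arrays wholly above CF-1. Fold sizes are understated, since 2 of the 4 CF-1 arrays were under the floor. A second Cxcr4 probe set, on chip B, stayed under its limit on every array.

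Across all members, strain gave 0 of 30 past the adjusted threshold by limma, beside 2 of 6408 probe sets (0.0312%), and 3 of 30 at an unadjusted p under 0.05, beside 7.88% (4.32% higher and 3.56% lower). The others were Csf1 and Tnfrsf21, both lower in the hybrid. Csf1, the macrophage growth factor, read 311, 141, 435.5 and 193 units in wild type, 399.6, -53.7, 146 and 191 in transgenic ovaries and 322.5 units after hCG, with a strain difference of -0.75 ± 0.27 (SE, adjusted p = 0.624). Most of its values lie near the floor and only 2 arrays were above the limit, and the floor sets the size of this difference, which was -0.09 with the floor doubled and -1.56 with a floor of 20 units. Tnfrsf21, a death domain receptor, read 545, 462, 646 and 417 units in wild type, 708, 423, 668 and 595 in transgenic ovaries and 969 units after hCG, with a difference of -0.45 ± 0.17 (SE, adjusted p = 0.624). The count of 3 was 6 without the 2-month hybrid wild type, and 1 without the 5-month CF-1 wild type or without the CF-1 cystic ovary. For these fits the share of all probe sets is not given.

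Most interleukins stayed under the detection limit, with Il18 and Il11 the 2 tested. Il18, a cytokine of the interleukin 1 family that drives interferon gamma, read 1145, 810.5, 1136 and 1258 units in wild type, 599, 849.5, 463 and 1220.3 in transgenic ovaries and 2431 units after hCG. Both CF-1 transgenic ovaries were lower than their wild types, 1.91-fold and 2.45-fold, while both hybrid pairs stayed within 1.05-fold. The difference of the genotype effect between strains was 1.13 ± 0.44 (SE, log2) and did not pass adjustment (adjusted p = 0.854). It was the only 1 of 30 members at an unadjusted p under 0.05 for that term, beside 5.43% of all probe sets. The hCG-treated luteoma stood 1.93-fold above the next array.

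Il11, a cytokine that signals through gp130, read 156, 175, 52.0 and 397 units in wild type, 460.4, 319, 374 and 193 in transgenic ovaries and 475 units after hCG. It was detected on 4 arrays, and its genotype difference was 0.53 ± 0.37 (SE, log2, adjusted p = 0.706), which was 0.96 without the 5-month hybrid wild type (adjusted p = 0.409). For the interaction of genotype with age, 0 of 30 members reached an unadjusted p of 0.05, beside 2.76% of all probe sets.

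Interleukin receptors made up the largest detected group, 7 of 20 genes. Il1r1, the signalling receptor of interleukin 1, read 893, 1063, 912 and 1015 units in wild type, 935, 699, 906 and 740.1 in transgenic ovaries and 556 units after hCG. Its genotype difference was -0.25 ± 0.17 (SE, log2, adjusted p = 0.698), and the hCG-treated luteoma was the lowest of the 9. Il4ra, the chain that binds interleukin 4, read 1057, 988, 788 and 1135 units in wild type, 1015, 1266, 555 and 1245 in transgenic ovaries and 1276 units after hCG, lowest in the tumour. Il10ra, the partner of Il10rb, ran from 289 to 585 units, and Il17ra, the interleukin 17 receptor, from 255 to 603 units with both cystic ovaries the highest.

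Of the interferon receptor genes Ifngr1, Ifnar1 and Ifnar2 were tested, while Ifngr2 and the interferon ligands stayed under the limit. Ifngr1, the ligand-binding chain for interferon gamma, read 1371, 1558, 1701 and 1593 units in wild type, 1668, 1726, 1959 and 1785 in transgenic ovaries and 1411 units after hCG. It was higher in 4 of 4 transgenic pairs, yet only by 1.11-fold to 1.22-fold, with a log2 difference of 0.20 ± 0.15 (SE, adjusted p = 0.719). Ifnar2, a chain of the type I interferon receptor, read 448, 436, 305 and 248 units in wild type, 113, 350.0, 200 and 267 in transgenic ovaries and 614 units after hCG, with a log2 difference of -0.53 ± 0.24 (SE, adjusted p = 0.551), and it reached the limit on 3 arrays. The other chain, Ifnar1, ran from 764 to 1335 units and was highest in the tumour. Across the type I and type II interferon ligands no probe set exceeded 392.2 units, a chip B reading under its limit.

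**Figure D4:**
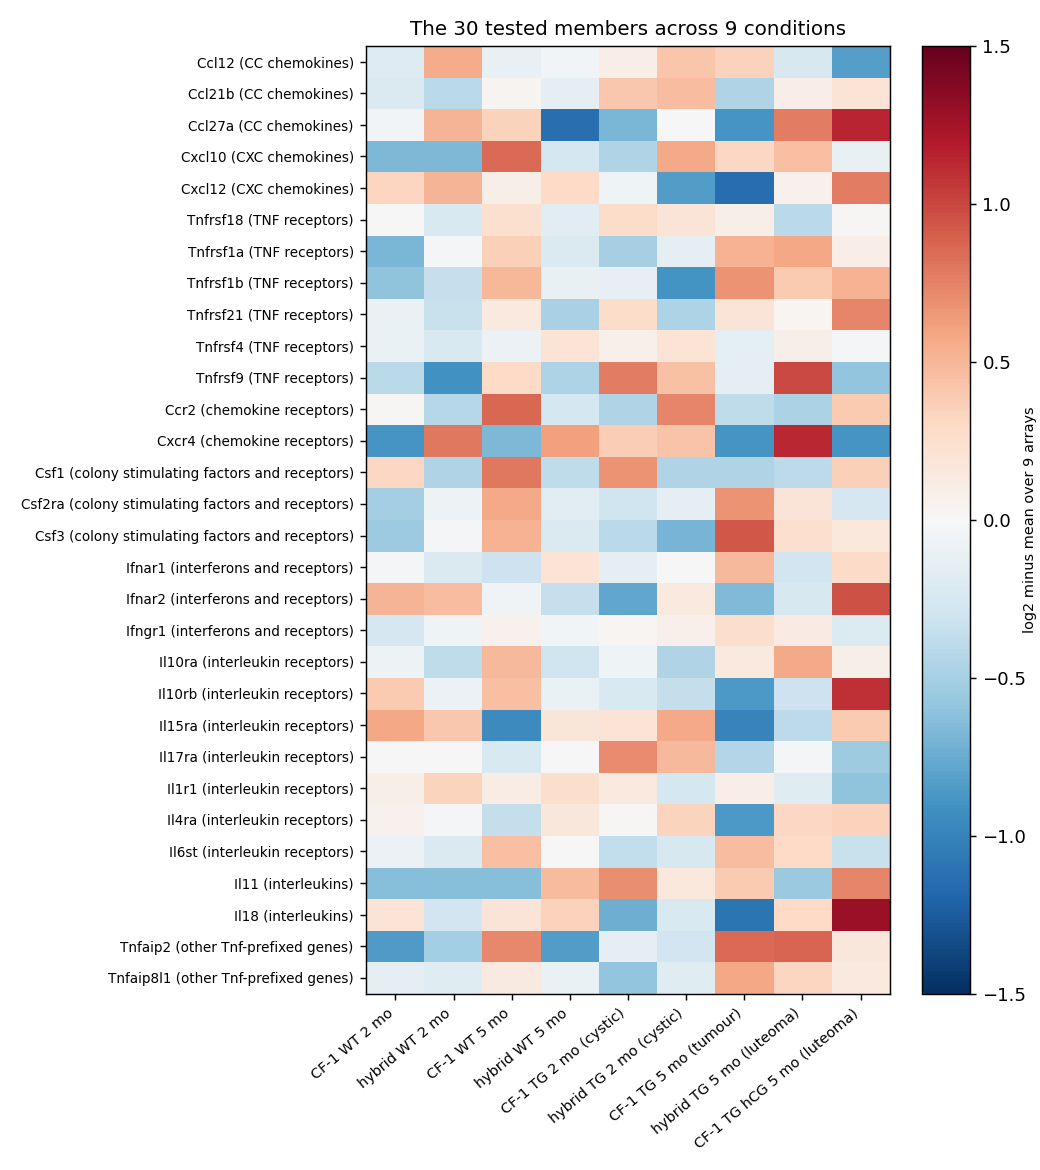
Log2 floored intensity of the 30 tested members (rows, grouped by role) on each of the 9 arrays (columns), relative to the gene's own mean over the 9 arrays, with colours ending at -1.5 and 1.5. The 5-month CF-1 wild type, the tumour and the hybrid luteoma share high readings of Tnfrsf1a, Tnfrsf1b, Csf2ra, Csf3, Il6st and Tnfaip2, and the hCG-treated array stands highest for Il18 and Il10rb.

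On average the TNF receptors Tnfrsf1a and Tnfrsf1b and the TNF-induced gene Tnfaip2 read higher at 5 than at 2 months. So did the colony stimulating factor genes Csf3 and Csf2ra, while Il15ra read lower. None passed adjustment. In the hybrid wild type Tnfrsf1a, Tnfaip2, Csf3 and Csf2ra went the other way, with lower readings at 5 than at 2 months. By limma, 0 of 30 members passed the adjusted threshold for age, beside 1 of 6408 probe sets (0.0156%), with members' adjusted p from 0.142 upward. At an unadjusted p under 0.05 there were 8 of 30 members, 7 higher and 1 lower, beside 19.5% of all probe sets, 9.63% higher and 9.91% lower. The members' median log2 difference, 5 minus 2 months, was 0.02 against -0.02 for all probe sets.

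Tnfrsf1b, the TNF receptor of leukocytes and endothelium, had the lowest p among the higher members. It read 449, 538, 967 and 632 units in wild type, 631, 367, 1095 and 897.5 in transgenic ovaries and 983 units after hCG. All 5-month arrays lay above all 2-month arrays, by a margin of about 1 unit between the CF-1 cystic ovary and the hybrid wild type. The means were 496 ± 113 (SD, n = 4) at 2 months and 898 ± 195 (SD, n = 4) at 5 months, a log2 difference of 0.86 ± 0.21 (SE, adjusted p = 0.15). A second Tnfrsf1b probe set, among those on both chips, did not exceed 189 units anywhere.

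Tnfrsf1a, the widely expressed death domain receptor of TNF, read 1459, 2293, 2998 and 2005 units in wild type, 1656, 2136, 3352 and 3498 in transgenic ovaries and 2495 units after hCG. The 5-month CF-1 wild type, the tumour and the hybrid luteoma were the highest, and the 5-month hybrid wild type lay among the 2-month arrays. The log2 age difference was 0.64 ± 0.23 (SE, adjusted p = 0.213). Tnfaip2, induced by TNF, showed the same 3 arrays apart from the rest, at 276, 367, 861 and 292 units in wild type, 478, 430.0, 941 and 959.5 in transgenic ovaries and 589 units after hCG. Of the untreated arrays only these 3 reached the chip B detection limit of 581 units, so the Tnfaip2 differences rest on undetected readings on the lower side. The log2 age difference of Tnfaip2 was 0.84 ± 0.31 (SE, adjusted p = 0.214) and its genotype difference 0.70 ± 0.31 (SE, adjusted p = 0.521), of which 0.34 was left without the 5-month hybrid wild type. With the floor doubled the age difference was 0.50. A second Tnfaip2 probe set was under the limit on every array.

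Csf3, the granulocyte colony stimulating factor, was detected in all 9 ovaries. It read 849, 1225, 1789 and 1071 units in wild type, 938, 765, 2367 and 1481 in transgenic ovaries and 1388 units after hCG, highest in the tumour, with an age difference of 0.79 ± 0.27 (SE, log2, adjusted p = 0.196). Csf2ra, the ligand-binding chain of the GM-CSF receptor, read 533, 717, 1123 and 682 units in wild type, 617, 686, 1212 and 867 in transgenic ovaries and 636 units after hCG, with an age difference of 0.58 ± 0.22 (SE, adjusted p = 0.227). Its genotype difference was 0.15 ± 0.22. The Csf3 receptor gene, Csf3r, was not detected, and neither was the ligand gene Csf2.

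Il6st, the gp130 chain shared by the interleukin 6 family, read 927, 849.8, 1350.3 and 992 units in wild type, 762.5, 836, 1360.3 and 1213 in transgenic ovaries and 781 units after hCG. The ages did not overlap among untreated arrays, with a log2 difference of 0.53 ± 0.17 (SE, adjusted p = 0.18). A further Il6st probe set was not tested and did not exceed 579 units. Tnfaip8l1, a relative of the TNF-induced gene Tnfaip8, read 465, 448, 559 and 475 units in wild type, 339, 447, 761 and 635 in transgenic ovaries and 565 units after hCG, with an age difference of 0.51 ± 0.21 (SE, adjusted p = 0.246). Its ages did not overlap either. The hCG-treated ovary, also 5 months old, read Il6st like a 2-month array.

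Il15ra, the high-affinity receptor of interleukin 15, was the lower member. It read 1032, 910.1, 357 and 784 units in wild type, 793, 1021, 345 and 526.5 in transgenic ovaries and 904 units after hCG. The 2-month arrays all lay above the untreated 5-month arrays, at 939 ± 112 (SD, n = 4) against 503 ± 205 (SD, n = 4), with a log2 difference of -0.98 ± 0.23 (SE, adjusted p = 0.142), or -0.58 with the floor doubled. Of the untreated 5-month arrays only the hybrid wild type reached the chip B detection limit of 581 units, so the lower mean rests largely on undetected readings. The hCG-treated ovary lay within the 2-month range. In all, 3 members were higher and 1 lower with ages that did not overlap, beside 4.79% and 4.59% of all probe sets. A second Il15ra probe set was under the limit on every array.

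**Figure D5:**
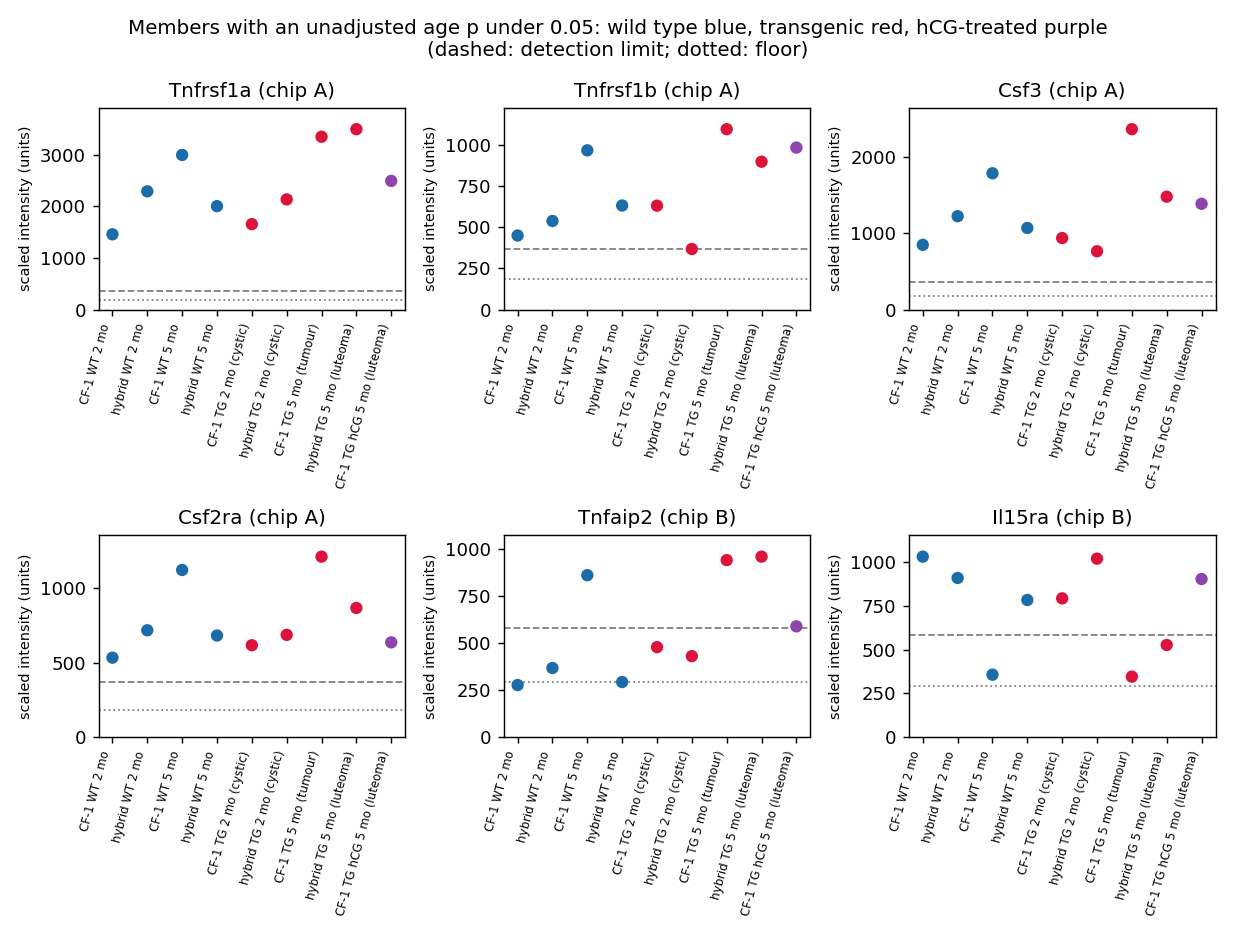
Scaled intensity (vertical axis, units, from 0) on the single array of each of 9 conditions for Tnfrsf1a, Tnfrsf1b, Csf3, Csf2ra, Tnfaip2 and Il15ra, with the detection limit dashed and the floor dotted. Wild-type arrays are blue, transgenic red and the hCG-treated array purple. The 5-month CF-1 wild type, the tumour and the hybrid luteoma are the 3 highest untreated arrays in every panel but that of Il15ra, where they are the 3 lowest.

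The same 3 arrays stood apart in a control that reads the strand opposite to a spiked transcript. That control read 768, 782 and 812 units there on chip A and at most 387 units on the other 6 arrays, and 531, 533 and 719 units on chip B against at most 330.0 units. On chip B only the hybrid luteoma's reading of it reached the detection limit. A Gapdh control of the opposite strand read lowest on these 3 arrays on both chips. The other controls of the 55 per chip are not given here. Macrophage markers moved with these 3 arrays too. Of 12 tested, 8 were higher at 5 months at an unadjusted p under 0.05, and the list's sum was 72308, 43661 and 58064 units on these arrays, 20613 to 31031 units on the other untreated ones and 42474 units after hCG. Adgre1, a defining macrophage marker, was under the detection limit, as was Csf1r on all but the 5-month CF-1 wild type. These are 3 of the 4 untreated 5-month arrays, so age and whatever else these arrays share cannot be told apart, the 5-month hybrid wild type being the only other one. The part of macrophages in these differences was not tested.

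Single arrays also weighed on the age counts. Without the 5-month hybrid wild type, Tnfaip2 (log2 difference 1.21, adjusted p = 0.041) and Il15ra (-1.17, adjusted p = 0.045) passed the threshold, and 10 members had an unadjusted p under 0.05. Tnfaip2 was under the detection limit on every 2-month array, and Il15ra on every untreated 5-month array kept there. The untreated 5-month arrays left in that fit were the CF-1 wild type, the tumour and the hybrid luteoma. Age and whatever else these arrays share are the same thing there. The count at an unadjusted p under 0.05 was 3 without the 2-month CF-1 wild type, without the 5-month CF-1 wild type or without the CF-1 cystic ovary, 4 without the hybrid cystic ovary and 5 without the hybrid luteoma. Shares of all probe sets are not given for these fits.

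The remaining TNF receptors varied little. Tnfrsf4, the costimulatory receptor OX40, ran from 1271 to 1723 units on chip B over the 9 arrays, a 1.36-fold range, and Tnfrsf18, known as GITR, from 345 to 550 units on chip A, a 1.59-fold range. Ccl27a, Il18 and Cxcr4 spanned the widest ranges of the tested members, 4.84-fold, 5.25-fold and 4.05-fold after the floor was applied.

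The tumour and both luteomas were then set against all other ovaries by size alone, since each is 1 array. The tumour stood at least 3-fold above every other array in 0 of 30 members, beside 0.281% of the probe sets tested, and at least 3-fold below in 0, beside 0.609%. The hCG-treated luteoma did so in 0 members either way, beside 0.0312% above and 0.140% below. Both luteomas were together at least 2-fold beyond the other 7 arrays in 0 members, beside 0.0468% above and 0.0312% below. The tumour held the highest reading for 7 members and the lowest for 6, beside 21.0% and 20% of all probe sets. Its highest were Tnfrsf1b, Csf2ra, Csf3, Ifnar1, Ifngr1, Il6st and Tnfaip8l1, and its lowest Ccl21b, Cxcl12, Il10rb, Il15ra, Il4ra and Il18.

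The hCG-treated luteoma held the highest reading for 8 members, beside 12.8% of all probe sets. These were Ccl27a, Cxcl12, Tnfrsf21, Ifnar2, Il10rb, Il4ra, Il11 and Il18, of which Cxcl12, Il10rb, Il4ra and Il18 were lowest in the tumour. The hybrid luteoma held the highest reading for 5 members, Tnfrsf1a, Tnfrsf9, Cxcr4, Il10ra and Tnfaip2, beside 10.7%.

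In pairs of the same strain and age, a 3-fold difference was met by 2 members, Ccl27a and Tnfaip2, both higher in the hybrid luteoma than in the hybrid wild type, where 2.14% of all probe sets were higher and 1.70% lower. Tnfaip2 was 3.28-fold higher there, over a wild-type reading under the detection limit. At 2-fold the tumour was lower than the 5-month CF-1 wild type in 6 members, Ccl27a, Il18, Cxcl12, Csf1, Il10rb and Ccr2, beside 7.10% of all probe sets, and higher in Il11, beside 5.04%. The hCG-treated ovary, set against the same wild-type array, was at least 2-fold higher for Ifnar2, Il18, Il11 and Il15ra, beside 7.38%, and lower for none, beside 6.98%. Il18 and Il11 were 2.14-fold and at least 2.58-fold higher there.

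Genes outside the name rule that carry these signals were counted from lists fixed with earlier results known. Of 15 JAK, STAT and SOCS genes on the chips 10 were tested, and for genotype 2 were higher and 0 lower at an unadjusted p under 0.05, beside 4.68% higher and 5.34% lower of all probe sets. They were Socs3, the feedback inhibitor of gp130 signalling, and Stat5a. Socs3 read 195, 257, 430 and 306 units in wild type, 568, 433, 458 and 1283 in transgenic ovaries and 505 units after hCG, with a log2 difference of 1.11 (adjusted p = 0.357). All transgenic arrays lay above the wild types, the hybrid luteoma most, where 1.86% of all probe sets tested were higher in this way. The margin was small, with 432.7 units in the hybrid cystic ovary against 429.6 in the 5-month CF-1 wild type. The other wild types were under the detection limit. For strain 0 were higher and 3 lower in the hybrid, Jak3 at -0.80, Pias3 at -0.66 and Stat3 at -0.48, with adjusted p of 0.604 to 0.624, and for age 1 was higher, Jak3 at 0.81 (adjusted p = 0.236).

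Of 21 genes on the chips for NF-kB and for TNF and interleukin 1 receptor signalling, 14 were tested, with 0 at an unadjusted p under 0.05 for genotype. Age gave 1 higher, the adaptor Fadd, at 0.67 (log2, adjusted p = 0.253). Of 26 interferon response genes 16 were tested, and for genotype 0 were higher and 2 lower, Ifit3 at -0.63 and Ifi204 at -0.61. For age 2 of these were higher, Irf8 and Rsad2, and 2 lower, Ifit3 and Usp18, beside 9.63% and 9.91% of all probe sets. Of 21 other cytokine genes 8 were tested, and Cx3cl1, a membrane-bound chemokine, was higher by genotype. It read 138, 200.0, 145 and 100.1 units in wild type, 69.9, 541, 521 and 902 in transgenic ovaries and 235 units after hCG, with a log2 difference of 1.31 (adjusted p = 0.31). Only the hybrid cystic ovary, the tumour and the hybrid luteoma reached the detection limit. The CF-1 cystic ovary and all wild types but the 2-month hybrid lay under the floor, so the size of the difference depends on the floor. In the NF-kB, interferon and other cytokine lists, strain gave Nfkbia (0.56), Irf2 (0.68) and Lifr (0.61) higher in the hybrid and Gbp2 (-0.91) lower. These log2 differences had an unadjusted limma p under 0.05, beside 4.32% of all probe sets higher and 3.56% lower. Across the 4 lists 0 genes passed the adjusted threshold for genotype, age or strain.

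Probe sets of 1 gene often disagreed. The Ccl4 probe set carried by both chips, for a chemokine of macrophages, read 556, 1035, 2316 and 428 units in wild type, 339, 270.2, 711 and 451 in transgenic ovaries and 976 units after hCG on chip A. On chip B it gave 346, 541, 543 and 729 units, then 332, 151, 596 and 493 units, and 1114 units. The highest array was the 5-month CF-1 wild type on chip A but the hCG-treated ovary on chip B, and the chip A only probe set of Ccl4 read below 0 on all 9 arrays. Of the other shared probe sets, those of Csf2, Il10, Il12b, Il4, Tnf and Tnfrsf1b were under the detection limit in every value of both chips, where Csf2 and Il10 had no value for the 2-month CF-1 wild type on chip B.

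Tnfaip6, a hyaluronan-binding protein made by cumulus cells around ovulation, was at the limit on 1 array and therefore not tested. It read 120.0, 1545, 134 and 105 units in wild type, 181, 307, 98 and 98 in transgenic ovaries and 148 units after hCG. The 2-month hybrid wild type was at least 3-fold above all other arrays. Without the filter on detection, 0.0307% of 13027 probe sets were so high on that array alone.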

How the data were processed

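RNA of 9 ovary conditions had been hybridised to 2 chip types, 18 arrays in all, with 1 array per condition and chip type. The deposited values are linear intensities, 1 per probe set, of which 13.6% to 30.1% per array are below 0. The software, background correction and scaling behind the authors' intensity values are not given in the sources used here. For the tumour's chip B array, the age follows title and source, from which its description differs.

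Within a chip type, arrays were scaled to equal trimmed means (2nd to 98th percentile). For log2 differences, values were raised to a floor of 183.8 units (chip A) or 290.7 (chip B), which understates differences of low probe sets. A fold against an array under the floor is given as at least that size. The detection limit was 2 floors. The fit took the 4122 chip A and 2286 chip B probe sets detected on 2 or more arrays. On each chip 55 control probe sets and 21 shared named ones were left out. Symbols came from the platform annotation, updated through GRCm38.p6 gene models: 5560, 197 and 827 probe sets of chip A and 2001, 27 and 4567 of chip B had 1, several or no symbol.

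Genotype, age and strain were additive terms in limma 3.58.1 (R 4.3.3) on the 8 untreated arrays of each chip type, which left 4 residual degrees of freedom. P-values were adjusted by Benjamini-Hochberg over all 6408 probe sets at 0.05. Because no condition was repeated, they measure the spread between conditions that these terms leave over, and not between animals. Interactions of genotype with age and with strain were fitted separately. Single arrays were compared by size, 3-fold, or 2-fold for the luteoma pair, the brighter side being detected. The fits were tested on simulated data. The number of arrays limits the precision.

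Levels are given on every array for the 2 members of each role with the lowest genotype p, the 5 with the lowest p for age and for strain, and members 3-fold apart in a pair, and other genes named were chosen after their values were seen. For a gene with several probe sets the brightest was used. Members, lists and tests were chosen with earlier results of these data known. Alternatives were the floor, the scaling, the filter, every probe set counted, trend and robust variances, the hCG-treated array added as an ordinary transgenic one, strain and age pairs as a block, other fold sizes, a term for 3 arrays, and each array left out in turn. Promoter windows came from RefSeq.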

Additional observations from a re-analysis of the deposited data

Results flagged for a closer look

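Of 60 groups of 4 arrays looked at, 4 had 1 array that stood apart from the other 3 by Dixon's criterion, the gap to the nearest value divided by the range, which chance meets in about 1 of 20 groups, so the 4 are near the number chance gives. For Ccl12 the hybrid wild type of 2 months, at 656.2 units, was apart among wild types (ratio 0.835). For Ccr2 the hybrid cystic ovary, at 1437.0 units, was apart among transgenic ovaries (0.944). For Il17ra the CF-1 wild type of 5 months, at 316.0 units, was the low one among wild types (0.982), under the detection limit. For Tnfaip2 the same array, at 860.8 units, was the high one (0.845), the other wild types being under the detection limit.

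Signals also appeared in probe sets outside the fit. The Ccl4 probe set that both chips carry reached 2316.3 units for the CF-1 wild type of 5 months on chip A, and 542.9 units for the same ovary on chip B. Tnfaip6 reached 1545.1 units in the hybrid wild type of 2 months and did not exceed 307 units elsewhere.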

How the results depend on the processing

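In every fit run, with any 1 array left out included, 0 members passed the adjusted threshold for genotype or, where strain was a term, for strain. For age the count was 0 to 2 with an array left out and 0 otherwise. Single genes were followed only where the main fit gave an unadjusted p under 0.05, so a kept direction was largely given by that choice. Of their 234 values, 230 kept direction and side of the threshold, 2 passed it and 2 reversed, and the lowest adjusted p was 0.0407. Those that passed were the age differences of Tnfaip2 and Il15ra without the 5-month hybrid wild type. Those that reversed were the age differences of Tnfrsf1a (-0.051) and Tnfaip2 (-0.241) with the term for 3 arrays. In that fit age rests on the 5-month hybrid wild type alone, and it therefore says nothing about stability. Sizes moved more: with an array left out, 27, 22 and 27 of 30 members moved by over 1.5 times for genotype, age and strain. The sign changed for 14, 14 and 16 of the 30. Counts at an unadjusted p under 0.05 moved too. For genotype the 3 became 0 with the hCG-treated array added, and 0 to 4 with an array left out. The share of all probe sets fell too with the hCG-treated array added, from 10.0% to 5.15%. For age the 8 became 4 when detection on all 9 arrays was required, and 3 to 10 with an array left out. For strain the 3 became 1 with detection on all 9 arrays and 1 with trend and robust variances, and 1 to 6 with an array left out. With trend and robust variances the strain share of all probe sets was 8.02%, beside 7.88% in the main fit. For the other settings in these counts the shares are not given. The 2 members with groups apart by genotype became 1 after quantile normalization and 1 with detection on all 9 arrays. They became 2 to 5 with an array left out, which can only keep or raise this count. The 2 pair differences became 0 with the floor doubled, 6 with a floor of 20 units, 0 with detection on all 9 arrays and 23 at 2-fold. The causes were not tested, except that requiring detection on all 9 arrays leaves fewer genes and a lower fold admits more. Levels near the detection limit, as for Csf1, Cxcl10 and Il11, have no firm order. No paired analysis by replicate number was possible because each condition had 1 array, and with strain and age pairs as a block genotype counts did not move.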
